A study of Mus musculus with 7 samples.

Results

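The sterol and fatty acid synthesis genes were examined in islet RNA-seq of second-generation (F2) male mice, as a set of 31 genes chosen for their function: 18 enzymes of cholesterol synthesis, 5 genes that regulate the SREBP transcription factors, 1 sterol carrier and 7 enzymes of fatty acid synthesis. All 31 were among the 21899 genes of the files, and all 31 averaged at least 10 counts, as did 13627 genes in all. The groups go back to wild-type C57BL/6J dams (F0) that were given dihydrotestosterone, a potent androgen, under the skin late in pregnancy (androgen exposure, AE) or the vehicle of benzyl benzoate and corn oil (control). Their sons (F1) received no further treatment and were mated with unrelated wild-type females, and the islets came from the F2 sons, which carry no engineered allele and were fed standard chow. Islets were freed with collagenase, picked by hand and kept in culture medium, and neither the age of the mice nor the number of mice behind a library is given in the sources used here. The labels list 7 samples, 3 control-F2 and 4 AE-F2, of which 1 of each group was used: control-F2 replicate 1 and AE-F2 replicate 4. The other 5 were not analysed here, so that below "control-F2" and "AE-F2" stand for these single libraries.

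Cells build cholesterol from acetyl-CoA by way of mevalonate, the isoprenoid diphosphates, squalene and lanosterol, and they build fatty acids from the same acetyl-CoA by way of malonyl-CoA. Both routes are switched on together by the SREBP proteins, membrane-bound transcription factors that are carried by Scap from the endoplasmic reticulum to the Golgi when sterols are scarce and are held back by the Insig proteins when sterols are plentiful. In β-cells, citrate that leaves the mitochondria after glucose uptake feeds this acetyl-CoA pool, and membrane cholesterol is known to matter for insulin granules and ion channels.

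The SREBP proteins bind sterol regulatory elements close to the start of their target genes, usually beside the factors NF-Y, which binds the CCAAT box, and Sp1, which binds the GC box. Promoters were taken from RefSeq (GRCm38.p6), 250 bases before to 50 bases after the gene start, and 25 of the 31 genes matched by symbol. The promoters of the 5 matched genes whose ratio lay above equality beyond counting error are printed here, 5′ to 3′ along the gene, to show which of these letters they hold. Capitals mark the sterol regulatory element TCACNCCAC and the CCAAT box, each searched on both strands, so that ATTGG is a CCAAT box on the opposite strand.
Hmgcs1 (chr13:119690101-119690400, + strand): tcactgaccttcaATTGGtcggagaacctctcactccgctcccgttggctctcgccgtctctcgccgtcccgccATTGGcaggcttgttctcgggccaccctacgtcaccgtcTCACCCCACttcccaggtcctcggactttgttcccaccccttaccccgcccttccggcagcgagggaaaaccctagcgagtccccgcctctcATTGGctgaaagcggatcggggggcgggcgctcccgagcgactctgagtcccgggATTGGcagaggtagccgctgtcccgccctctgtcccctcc
Idi1 (chr13:8885356-8885655, + strand): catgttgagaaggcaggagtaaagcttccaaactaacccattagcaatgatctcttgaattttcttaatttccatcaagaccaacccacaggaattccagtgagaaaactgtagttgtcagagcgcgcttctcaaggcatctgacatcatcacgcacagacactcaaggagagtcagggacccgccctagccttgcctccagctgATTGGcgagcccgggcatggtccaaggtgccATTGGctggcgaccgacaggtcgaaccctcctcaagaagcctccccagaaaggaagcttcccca
Cyp51 (chr5:4104648-4104947, - strand): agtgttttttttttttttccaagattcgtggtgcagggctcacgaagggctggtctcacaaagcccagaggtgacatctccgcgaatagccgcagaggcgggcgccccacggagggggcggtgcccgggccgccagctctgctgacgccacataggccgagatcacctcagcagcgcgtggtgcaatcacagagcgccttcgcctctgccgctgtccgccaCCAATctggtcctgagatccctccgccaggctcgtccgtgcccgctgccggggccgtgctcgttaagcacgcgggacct
Insig1 (chr5:28071162-28071461, + strand): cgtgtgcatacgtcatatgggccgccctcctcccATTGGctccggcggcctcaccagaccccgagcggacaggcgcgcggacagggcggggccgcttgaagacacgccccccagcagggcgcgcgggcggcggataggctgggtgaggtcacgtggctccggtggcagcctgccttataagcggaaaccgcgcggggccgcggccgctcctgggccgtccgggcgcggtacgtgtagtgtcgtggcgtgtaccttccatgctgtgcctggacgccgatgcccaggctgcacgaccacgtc
Fasn (chr11:120824498-120824797, - strand): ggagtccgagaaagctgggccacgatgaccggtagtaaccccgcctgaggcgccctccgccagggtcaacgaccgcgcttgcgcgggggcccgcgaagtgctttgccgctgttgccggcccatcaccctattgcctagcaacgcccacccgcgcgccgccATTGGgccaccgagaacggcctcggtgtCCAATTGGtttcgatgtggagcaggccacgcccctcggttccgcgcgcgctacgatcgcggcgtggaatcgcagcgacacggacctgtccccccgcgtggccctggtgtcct

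Hmgcs1, which encodes the enzyme that makes HMG-CoA, held the only match to TCACNCCAC among the 25 genes, 137 bases before its start, together with 4 CCAAT boxes. TCACNCCAC was thus in 1 of 25 genes, against 1.44% of all genes of the table, and in 1 of the 34 promoters of these genes, against 1.24% of all 32851 promoters of that length. A CCAAT box was found in 21 of the 25 genes (84.0%), against 41.1% of the 27025 genes of the table and 42.5% of the 10637 genes of the table that averaged at least 10 counts here. Fasn held 3, of which 2 overlap as opposite strands of the same stretch CCAATTGG. Idi1 held 2, and Cyp51 and Insig1 held 1 each. The 4 genes without one were Acat2, Scap, Acaca and Elovl6. The GC box, searched as GGGCGG, was also found in 21 of 25 genes, but 68.1% of the genes averaging at least 10 counts held it as well, against 38.2% of all genes of the table. The E-box CACGTG was found in 5 of the 25 genes, against 11.4% of the genes averaging at least 10 counts. By promoter rather than by gene, CCAAT was in 22 of the 34 promoters of these genes (64.7%) and in 37.4% of all promoters. Likewise GGGCGG was in 73.5% of the 34 and 35.7% of all, and CACGTG in 17.6% and 7.15%. No match overlapped a match to another of these 4 motifs, and genes with several promoters in the table had more chances of a match. The symbol match reached 78.1% of the genes averaging at least 10 counts, so that comparison covers only part of them. Matches describe these letters within the window and no binding was measured. Only 1 form of the sterol regulatory element was searched, so a gene without a match is not shown to lack the element. Fdps, Fdft1, Sqle, Stard4, Scd1 and Scd2 were not in the table.

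**Figure D1:**
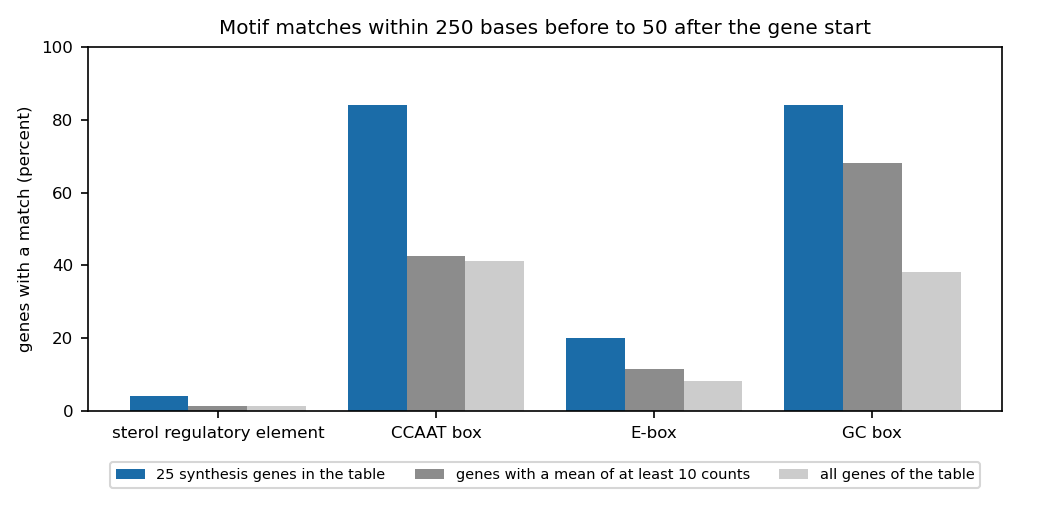
Share of genes (percent, y axis) with at least 1 match to each of 4 motifs (x axis) within 250 bases before to 50 bases after the gene start. Blue bars are the 25 synthesis genes found in the table, dark grey bars the 10637 matched genes averaging at least 10 counts, and light grey bars all 27025 genes. The CCAAT box stands at 84.0% against 42.5% and 41.1%, whereas the GC box stands at 84.0% against 68.1% and 38.2%.

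The control-F2 file held 16285888 counts in all and the AE-F2 file 21278513. Levels are given in CPM (counts per 1000000 counts of the library) after scaling with TMM factors, and differences as log2 ratios, AE-F2 over control-F2, with 0.5 counts added to each value. The interval beside each ratio was derived from the 95% Clopper-Pearson limits on how much of a gene's counts AE-F2 held. Reads without molecular identifiers are not independent molecules, so these intervals cover counting error only, and with 1 library per group the conditions cannot be tested against each other: every difference below is one between 2 libraries and has no replicate check. The 10 β-cell markers were all present and summed to 203183 CPM in control-F2 and 203522 CPM in AE-F2. Most of both sums came from Ins2 (128304 and 123871 CPM), Ins1 (48713 and 51029 CPM) and Iapp (18111 and 21215 CPM), so the sums say little about the other markers.

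Most of the 31 genes were slightly higher in AE-F2. The ratio was above 0 for 24 of 31 (77.4%), and the median log2 ratio was 0.11, against 0.00 over all 13627 genes, of which 50% (6816) were higher. Of the 10776 genes with mean counts between those of the lowest and the highest of the 31, 47.0% were higher, with a median of -0.01. The interval lay above equality for 9 of the 31 (29.0%): Hmgcs1, Idi1, Sqle, Cyp51, Insig1, Stard4, Fasn, Scd1 and Scd2. The same held for 13.4% of all genes and 12.1% of those in the same count range. The interval lay below equality for 1 of the 31 (3.23%), Scap, as it did for 13.5% of all genes and 15.8% of those in the same count range.

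Few of these differences were large. At least 1.2-fold higher were 5 of the 31 (16.1%), namely Scd1, Idi1, Stard4, Hmgcs1 and Scd2, against 13.9% of all genes and 6.29% in the same count range. At least 1.2-fold lower was 1 gene (3.23%), Tm7sf2, against 9.53% of all genes and 6.63% in the same count range. Scd1 alone passed 1.5-fold and 2-fold. Summed over the set the level was 2798 CPM in control-F2 and 2900 CPM in AE-F2, 1.04-fold (counting interval 1.02 to 1.05). Without Scd1 the median was 0.09, with 23 of 30 genes higher.

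**Figure D2:**
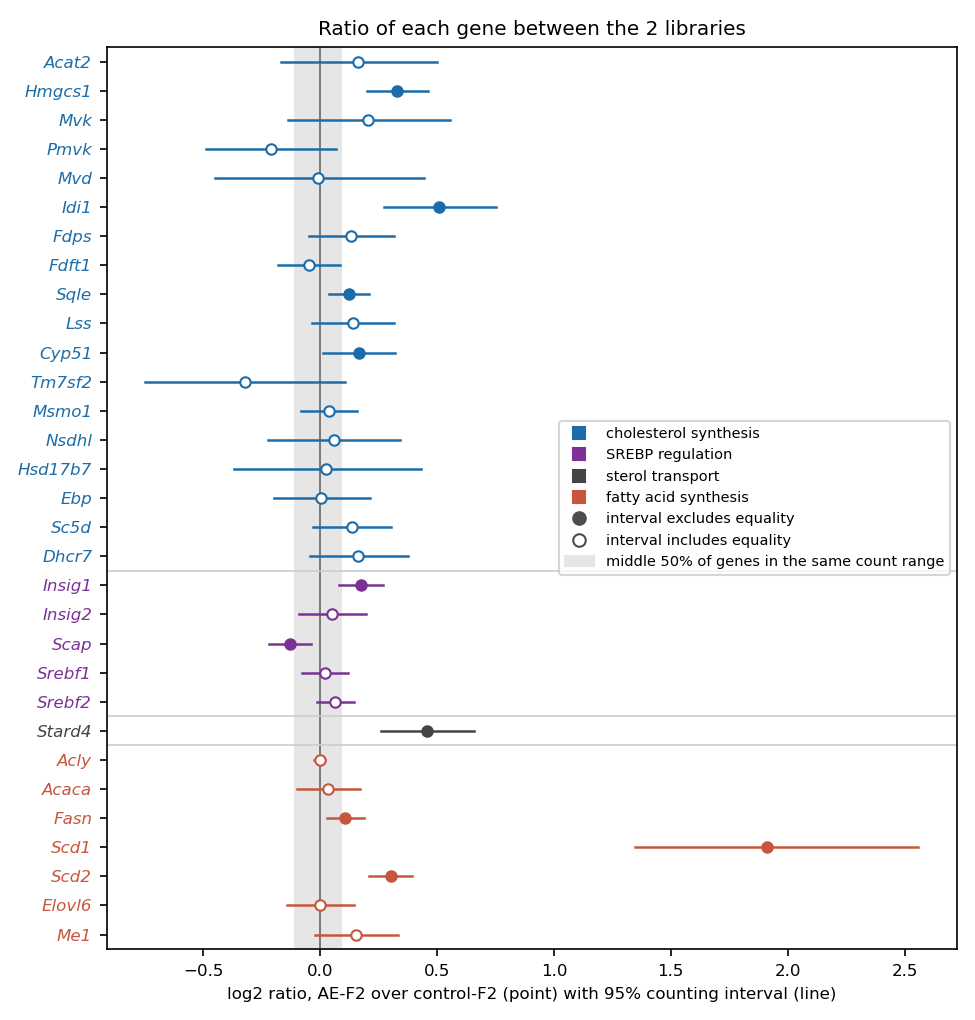
AE-F2 over control-F2 as a log2 ratio (x axis) for each of the 31 genes (y axis, in pathway order within each group), with lines for the 95% counting interval and filled points where it excludes equality. The grey band holds the middle 50% of the 10776 genes in the same count range, from -0.11 to 0.09. Of the 31 points 24 lie above 0, and Scd1 at 1.91 lies far from the rest, which run from -0.32 to 0.51.

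Other RNA in these 2 islet preparations differed too. The 8 immune markers were all higher in AE-F2 (median log2 ratio 1.36, 208 CPM summed in control-F2 and 668 in AE-F2). Most of that sum's difference lay in the immunoglobulin genes Ighm (3.13 and 253 CPM) and Igkc (0.552 and 85.6 CPM), which were singled out after their values were seen. The 8 mesenchymal markers (median 1.01, 240 and 299 CPM summed) and the 6 α-cell markers (median 0.15, 17699 and 23879 CPM summed) were also all higher. Of the 10 acinar markers 9 were lower (median -0.39, 2582 and 2307 CPM summed), the exception being Amy2a5 (477 and 736 CPM), and all 10 immediate early genes were lower (4155 and 2136 CPM). Of the 10 β-cell markers 8 were lower and 2 higher, each with an interval that excluded equality, and the median log2 ratio was -0.10. Over all genes the interval lay below equality for 13.5% and above it for 13.4%. The 7 liver markers, of a tissue rich in these pathways, summed to 33 counts in control-F2 and 38 in AE-F2. The part of these cell types and genes in the ratios of the synthesis genes was not tested, and in bulk islets fewer cells of a type cannot be told apart from less RNA per cell.

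The steps from acetyl-CoA to farnesyl diphosphate hold 7 of the 18 cholesterol enzymes. Acat2 (ENSMUSG00000023832), which joins acetyl-CoA units to begin the route, had 128 counts (7.85 CPM) in control-F2 and 187 counts (8.80 CPM) in AE-F2. Its log2 ratio of 0.16 had an interval from -0.17 to 0.50, so that no difference was detectable at this depth. Hmgcs1 (ENSMUSG00000093930, chr13:119690379-119708260), which makes HMG-CoA, had 773 counts (47.4 CPM) in control-F2 and 1267 counts (59.6 CPM) in AE-F2. Its log2 ratio was 0.33 (interval 0.20 to 0.46), which was above 88.9% of all genes, and 3.99% of those in the same count range had a higher one. The 3 enzymes that turn mevalonate into isopentenyl diphosphate gave ratios of both signs. Mvk, mevalonate kinase, had 117 and 176 counts (log2 ratio 0.20, interval -0.14 to 0.56). Pmvk, phosphomevalonate kinase, had 204 and 230 counts (-0.21, interval -0.49 to 0.07). Mvd, the decarboxylase, had 77 and 100 counts, which is 4.72 and 4.71 CPM. All 3 intervals included equality.

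Idi1 (ENSMUSG00000058258, chr13:8885501-8892451), which interconverts isopentenyl and dimethylallyl diphosphate, had the highest ratio among the cholesterol enzymes. It had 225 counts (13.8 CPM) in control-F2 and 418 counts (19.7 CPM) in AE-F2. The log2 ratio was 0.51 (interval 0.27 to 0.75), which was above 92.9% of all genes, and 1.54% of those in the same count range had a higher one. Fdps, which makes farnesyl diphosphate, had 426 and 609 counts and a log2 ratio of 0.13 (interval -0.05 to 0.32). The 7 genes up to farnesyl diphosphate together had 120 CPM in control-F2 and 141 CPM in AE-F2, a 1.18-fold higher sum with a counting interval from 1.11 to 1.25. Without Hmgcs1 and Idi1 the other 5 summed to 58.4 CPM in control-F2 and 61.3 CPM in AE-F2. These 2 genes were left out after the values were seen, as the only 2 of the 7 with an interval above equality, so the remainder is a description only.

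Of the 11 enzymes from squalene on, 9 were higher, against 5 of the 7 before them. Their sum was 383 CPM in control-F2 and 405 CPM in AE-F2, 1.06-fold with an interval from 1.02 to 1.09. This division of the pathway into 2 stretches was made after the values were seen. Fdft1, which makes squalene, had 831 counts (50.96 CPM) in control-F2 and 1048 counts (49.3 CPM) in AE-F2 (log2 ratio -0.05, interval -0.18 to 0.09). Sqle (ENSMUSG00000022351), the squalene epoxidase that is a rate-limiting step after HMG-CoA reduction, was the most abundant enzyme of the route in CPM. It had 1854 counts (114 CPM) in control-F2 and 2633 counts (124 CPM) in AE-F2, with a log2 ratio of 0.12 (interval 0.04 to 0.21). Lss, which closes the ring to lanosterol, had 451 counts (27.7 CPM) and 648 counts (30.5 CPM) (log2 ratio 0.14, interval -0.03 to 0.32). Cyp51, the lanosterol demethylase, had 577 and 843 counts, and its log2 ratio of 0.16 had an interval that only just excluded equality (0.01 to 0.32).

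The enzymes that trim lanosterol to cholesterol gave the lowest ratio of the set as well as several close to 0. Tm7sf2, a sterol reductase, had 93 counts (5.70 CPM) in control-F2 and 97 counts (4.56 CPM) in AE-F2. Its log2 ratio was -0.32, but at this depth the interval ran from -0.75 to 0.10 and included equality. Msmo1, which removes the methyl groups at carbon 4, had 990 counts (60.7 CPM) and 1326 counts (62.4 CPM). Its partner Nsdhl, a sterol dehydrogenase, had 182 counts (11.2 CPM) and 247 counts (11.6 CPM). Its other partner Hsd17b7, a ketoreductase, had 94 counts (5.76 CPM) and 125 counts (5.88 CPM), so that each of these 3 steps was nearly level between the libraries. Ebp, the sterol isomerase, had 347 counts (21.3 CPM) in control-F2 and 454 counts (21.4 CPM) in AE-F2. The log2 ratios of these 4 genes ran from 0.01 to 0.06, all with intervals that included equality. Sc5d, the sterol desaturase, had 503 counts (30.8 CPM) and 721 counts (33.9 CPM) (log2 ratio 0.14, interval -0.03 to 0.30). Dhcr7, which reduces 7-dehydrocholesterol to cholesterol, had 319 counts (19.6 CPM) and 466 counts (21.9 CPM) (log2 ratio 0.16, interval -0.04 to 0.37).

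Over all 18 cholesterol enzymes 14 were higher, 4 (22.2%) had an interval above equality and 0 had one below, against 12.1% above and 15.8% below among all genes in the same count range. The median log2 ratio was 0.13. Their summed level was 502 CPM in control-F2 and 546 CPM in AE-F2, 1.09-fold with a counting interval from 1.06 to 1.12. Some of these counts are uncertain for a reason other than depth. In the GENCODE M21 annotation (GRCm38), Fdft1 shares 774 exon bases with Ctsb on the opposite strand, and Cyp51 shares 166 with Akap9 on the opposite strand. Tm7sf2 shares 532 with Vps51 on its own strand, and Srebf1 shares 109 with Rai1 on the opposite strand. The strand setting of the counting is not given in the sources used here, so how reads of such pairs were assigned is not known. Counts were not whole for Fdft1 and Ctsb or for Tm7sf2 and Vps51, but they were whole for Cyp51, Akap9, Srebf1 and Rai1. Genes that are not listed in the files also overlap exons of 9 members. The longest of these overlaps were 1124 bases of Fdps with Gm43738 on the same strand and, on the opposite strand, 985 of Scap with 5830462I19Rik, 557 of Hmgcs1, 381 of Lss and 323 of Idi1. Acat2, Fdft1 and Tm7sf2 had counts that were not whole numbers. Without these 5 genes the median over the other 26 members was 0.12, and 21 of them were higher.

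**Figure D3:**
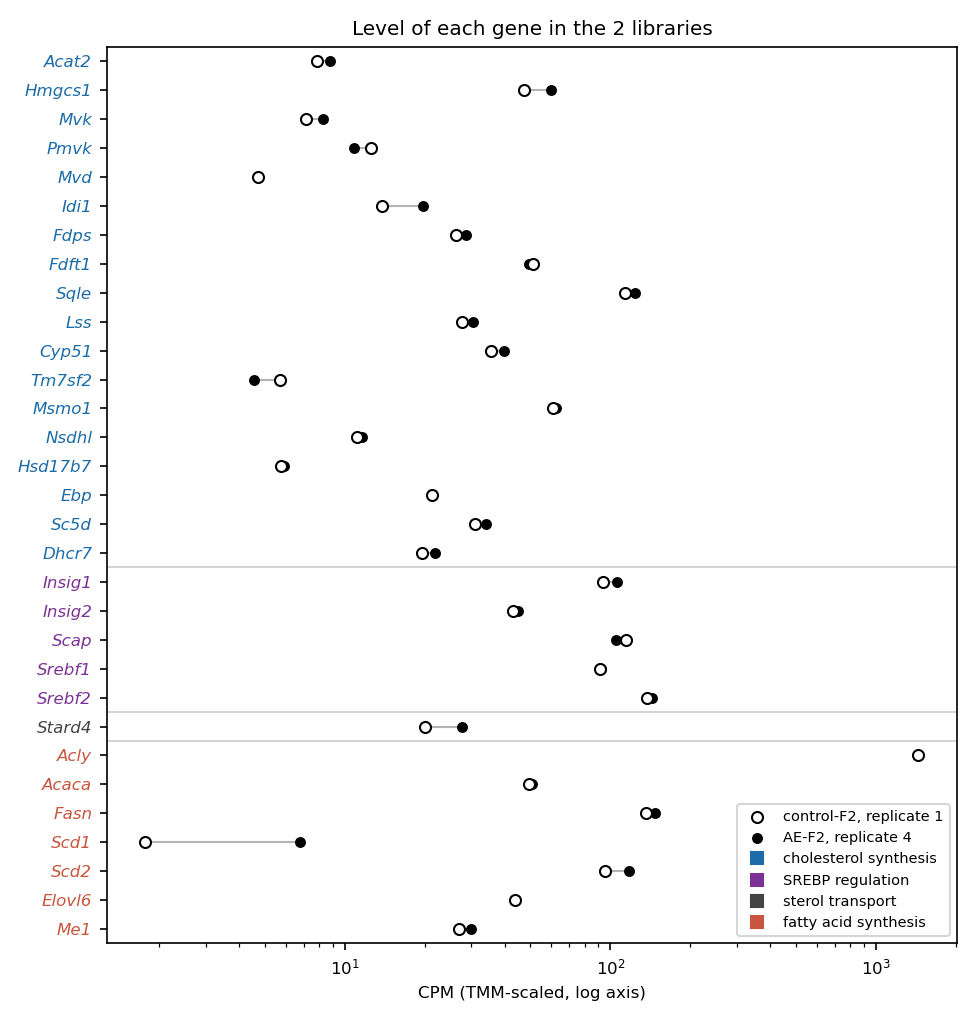
Level of each of the 31 genes (y axis) in CPM on a log axis, with open points for control-F2 replicate 1 and filled points for AE-F2 replicate 4, joined by a line. For most genes the points nearly coincide, Acly lies far to the right at 1442 and 1440 CPM, and Scd1 shows the widest gap, from 1.78 to 6.78 CPM.

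For the genes of the SREBP proteins themselves, both ratios were within counting error of equality. Srebf1 (ENSMUSG00000020538), whose products chiefly drive fatty acid genes, had 1485 counts (91.1 CPM) in control-F2 and 1964 counts (92.4 CPM) in AE-F2, with a log2 ratio of 0.02 (interval -0.08 to 0.12). Srebf2 (ENSMUSG00000022463), whose product chiefly drives cholesterol genes, had 2238 counts (137 CPM) and 3050 counts (144 CPM), with a log2 ratio of 0.06 (interval -0.01 to 0.14). Neither interval reached beyond 0.14 in either direction, though correction for GC content and length raised the log2 ratio of Srebf1 to 0.11 and that of Srebf2 to 0.16. Of the counts of Srebf1 and Srebf2 together, Srebf1 held 39.9% in control-F2 (95% Clopper-Pearson interval 38.3 to 41.5) and 39.2% in AE-F2 (37.8 to 40.5). This share does not depend on the scaling between libraries, and its intervals overlapped.

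The genes for the proteins that hold or carry SREBP gave 1 interval above equality, 1 below and 1 that included it. Insig1 (ENSMUSG00000045294), which retains Scap in the endoplasmic reticulum and is itself an SREBP target, had 1531 counts (93.9 CPM) in control-F2 and 2251 counts (106 CPM) in AE-F2, a log2 ratio of 0.17 (interval 0.08 to 0.27). Insig2, its relative, had 704 and 952 counts with a log2 ratio of 0.05 (interval -0.09 to 0.20). Insig1 held 68.5% of the counts of this pair in control-F2 (66.5 to 70.4) and 70.3% in AE-F2 (68.7 to 71.9), and these intervals overlapped. Scap (ENSMUSG00000032485), the escort of SREBP, was lower, with 1868 counts (115 CPM) in control-F2 and 2227 counts (105 CPM) in AE-F2. Its log2 ratio of -0.13 had an interval from -0.22 to -0.04, and it was the only gene of the set with an interval below equality, with the exon overlap named above. After correction for GC content and length, which was added once the data had been seen, the log2 ratio of Scap was -0.03.

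Stard4 (ENSMUSG00000024378), a soluble carrier that moves cholesterol between membranes, had the second highest ratio outside fatty acid synthesis. It had 328 counts (20.1 CPM) in control-F2 and 587 counts (27.6 CPM) in AE-F2. The log2 ratio was 0.46 (interval 0.26 to 0.66).

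Among the 7 fatty acid genes the desaturases Scd1 and Scd2 had the highest ratios, a contrast drawn after the values were seen. After correction for GC content and length the gap was small for Scd2, at 0.33 against 0.23 for Fasn. Acly (ENSMUSG00000020917), which splits citrate into acetyl-CoA and oxaloacetate and so supplies both routes, had 23518 counts (1442 CPM) in control-F2 and 30608 counts (1440 CPM) in AE-F2. This 0.999-fold ratio had an interval from 0.982 to 1.02, and correction for GC content and length turned its sign, to a log2 ratio of 0.04. Me1, the malic enzyme that supplies NADPH, had 438 and 636 counts (log2 ratio 0.16, interval -0.02 to 0.33). Acaca, the carboxylase that makes malonyl-CoA, had 803 counts (49.2 CPM) and 1073 counts (50.5 CPM), 1.03-fold with an interval from 0.935 to 1.12. Fasn, fatty acid synthase, had 2219 counts (136 CPM) and 3114 counts (147 CPM), with a log2 ratio of 0.11 (interval 0.03 to 0.19), or 0.23 after the correction for GC content and length. Elovl6, which lengthens palmitate, had 712 counts and 928 counts, which is 43.7 CPM in both libraries.

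Scd1 (ENSMUSG00000037071, chr19:44394455-44407879), a stearoyl-CoA desaturase that makes monounsaturated fatty acids, had the largest ratio of the set and, in control-F2, its lowest level. It had 29 counts (1.78 CPM) in control-F2 and 144 counts (6.78 CPM) in AE-F2, 3.76-fold with an interval from 2.54 to 5.89. Of all 13627 genes 98.7% had a lower ratio, and of those in the same count range, whose lower end Scd1 itself sets, 0.121% had a higher one. Scd2 (ENSMUSG00000025203, chr19:44293674-44306864), the related desaturase encoded nearby on the same chromosome, had 1557 counts (95.5 CPM) in control-F2 and 2503 counts (118 CPM) in AE-F2. Its log2 ratio was 0.30 (interval 0.21 to 0.40), which was above 88.1% of all genes, and 4.70% of those in the same count range had a higher one. Scd1 held 1.83% of the counts of both desaturases in control-F2 (1.23 to 2.62) and 5.44% in AE-F2 (4.61 to 6.37), with intervals that did not overlap. The counts of both genes were whole numbers in both files. Scd1 is also abundant in fat tissue, and of 8 adipocyte markers Adipoq, Plin1 and Lep were at 0 counts in both libraries. Fabp4, which endothelial cells and macrophages also express, had 67 counts (4.11 CPM) in control-F2 and 140 counts (6.59 CPM) in AE-F2. Its log2 ratio was 0.68 (interval 0.25 to 1.12). Lipe had 170 and 220 counts, which is 10.4 CPM in both libraries. Cidec, Retn and Cfd had 0 counts in control-F2 and 3, 1 and 4 in AE-F2. Of the 6 Schwann cell markers 5 were higher (median log2 ratio 0.34, 93.7 and 101 CPM summed). Mbp made up most of that sum (79.6 and 84.7 CPM). The part of any cell type in the Scd1 ratio was not tested.

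**Figure D4:**
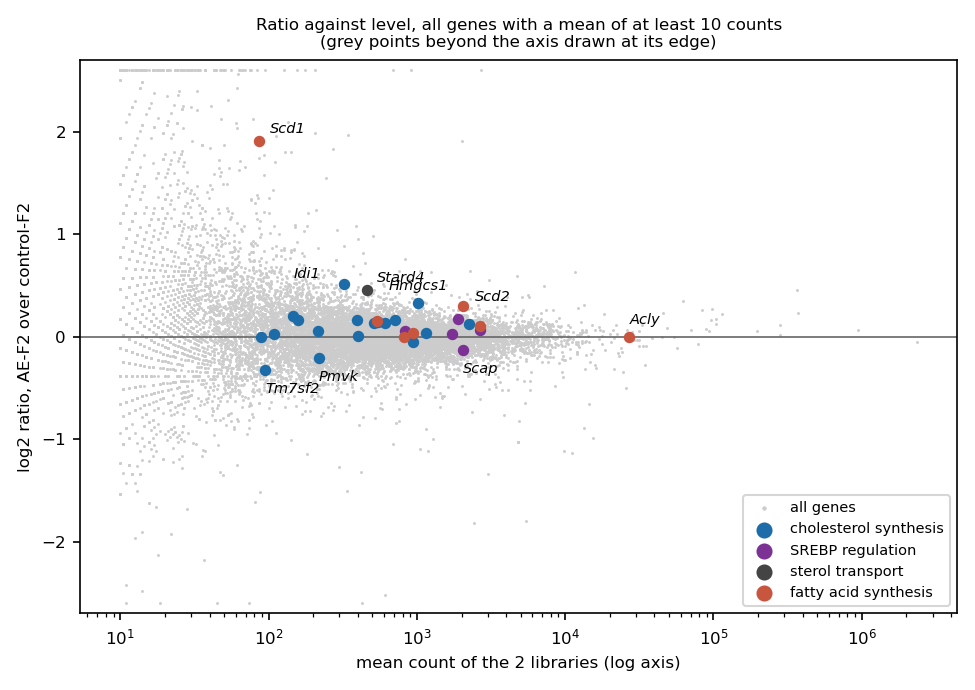
AE-F2 over control-F2 as a log2 ratio (y axis) against the mean count of the 2 libraries (x axis, log) for all 13627 genes averaging at least 10 counts (grey) and the 31 synthesis genes (coloured by group), with grey points beyond the axis drawn at its edge. The grey cloud narrows as counts rise, and Scd1, at the low end of the set's count range, lies well above the cloud while most of the others lie inside it, more often above 0 than below.

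Levels of different genes were compared per kilobase of exon. Acly dominated the set, with 273 CPM per kb in both libraries, 51.4% of the summed level of the 31 genes in control-F2 and 49.4% in AE-F2. Insig1 came next with 30.4 CPM per kb in control-F2 and 34.2 in AE-F2, and Sqle stood at 20.5 and 22.3. Srebf2 stood at 19.1 CPM per kb in control-F2 and 19.98 in AE-F2, while Scd2 stood at 17.5 and 21.6. The order below Insig1 depends on the length used: by the longest transcript Srebf2 lay above both Sqle and Scd2 in both libraries. The lowest were Hsd17b7 (1.13 and 1.15 CPM per kb), Tm7sf2 (1.30 and 1.04) and Scd1 (0.364 and 1.39). Exon length was the merged length of all annotated exons, which for Acaca was 17074 bases where its longest transcript has 9513, and with the longest transcript in its place Acly held 49.3% and 47.5% of the sum. The 7 fatty acid genes summed to 1795 CPM in control-F2 and 1835 CPM in AE-F2, 1.02-fold with a counting interval from 1.01 to 1.04. Without Acly, left out after its value was seen, the other 6 summed to 353 CPM in control-F2 and 395 CPM in AE-F2, 1.12-fold with a counting interval from 1.08 to 1.16.

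Neighbouring lipid pathways were read for comparison, against a background in the same count range of 47.0% higher, 12.1% with an interval above equality and 15.8% with one below. Of 10 genes that cut SREBP free or degrade sterol-regulated proteins, 3 were higher and 7 lower, with a median log2 ratio of -0.03, and 0 had an interval above equality and 3 one below. Mbtps1, the site-1 protease that cuts SREBP, had 188 CPM in control-F2 and 185 CPM in AE-F2. Of 8 genes with enough counts among 9 of other isoprenoid branches such as ubiquinone and dolichol, 5 were higher with a median of 0.01 and 0 with an interval that excluded equality. Of 15 genes of sterol handling and export 7 were higher (median -0.01), 1 (6.67%) had an interval above equality and 3 had one below, shares close to that background. Among them Abca1, which exports cholesterol from cells, had 204 and 211 CPM, and Npc2, which releases cholesterol in lysosomes and was the 1 above, had a log2 ratio of 0.18 (interval 0.10 to 0.25).

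Of 23 further genes of lipid synthesis, 13 were higher, 2 (8.70%) had an interval above equality and 4 (17.4%) had one below, again near the background of 12.1% and 15.8%, and the median was 0.01. Elovl5, which lengthens polyunsaturated fatty acids, had a log2 ratio of 0.18 (interval 0.10 to 0.26). Hsd17b12, more abundant than Elovl5 in control-F2, had 163 CPM in control-F2 and 141 CPM in AE-F2, a log2 ratio of -0.21 (interval -0.29 to -0.14). Mlxipl, which encodes the glucose-responsive factor ChREBP that drives many lipid genes, had 313 CPM in control-F2 and 269 CPM in AE-F2, a log2 ratio of -0.22 (interval -0.27 to -0.16). Genes of fatty acid oxidation, read as a contrast, were higher at least as often as the synthesis genes, with 12 of the 14 that had enough counts (of 15) above 0 and a median of 0.12. Of these, 3 (21.4%) had an interval above equality and 2 (14.3%), Hadh and Hadha, had one below, beside the same background. Hadh alone had 858 CPM in control-F2 and 723 CPM in AE-F2, and the summed level of the list was 1542 CPM in control-F2 and 1438 CPM in AE-F2. The share of higher genes was thus above the background in oxidation as well as in synthesis.

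**Figure D5:**
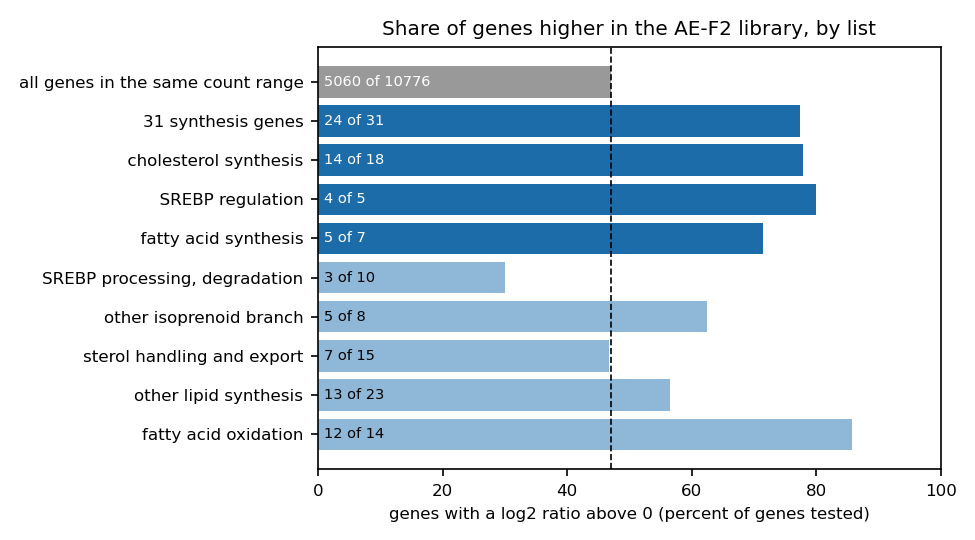
Share of genes with a log2 ratio above 0 (x axis, percent of genes tested) for all genes in the same count range (grey), the 31 synthesis genes and 3 of their groups (dark blue) and 5 neighbouring lists (light blue), with the number of genes in each bar. The dashed line marks 47.0%. The synthesis genes stand at 77.4% and the fatty acid oxidation genes at 85.7%.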

How the data were processed

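Islet mRNA was enriched with oligo(dT) beads, converted to libraries with a NEBNext Ultra kit and sequenced on an Illumina instrument. The authors describe read filtering and HISAT2 alignment. The values they deposited, 1 file per library, are estimated counts per gene with no scaling for depth or length. The submitters' processing notes name Bowtie2, RSEM and DESeq2 without role or order, and the build and annotation behind the counts are not given in the sources used here.

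Of 21899 genes, 21806 matched a symbol in GENCODE M21 (GRCm38). Counts were rounded, scaled with TMM factors from edgeR 4.0.16 (R 4.3.3) and compared for the 13627 genes averaging at least 10 counts, with 0.5 counts added and Clopper-Pearson intervals from scipy 1.17.1. The control-F2 library held 16285888 counts and the AE-F2 library 21278513, so the AE-F2 library has the smaller counting error. With 1 library in each group, neither a model nor a p-value was used. The calculation of the ratio and interval was checked on simulated libraries that held counting error only, so the check says nothing about spread between animals or libraries. The genes, lists and groups by role were chosen with earlier results of these data known. The 31 genes were all named, and of each other pathway list at most 4 of its most abundant genes. Alternatives were other scalings, with size factors from DESeq2 1.42.0 among them, minimum counts, pseudocount, fold thresholds and unrounded counts. Removal of GC and length trends, known for 99.9% of genes (lowess in statsmodels 0.14.6), was added after the data were seen. So was leaving out genes that share exons with a listed gene or have counts that are not whole.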

Additional observations from a re-analysis of the deposited data

How the results depend on the processing

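The median log2 ratio of the 31 genes ran from 0.10 to 0.12 over the other scalings, minimum counts, pseudocount, unrounded counts and the 2 alternatives added after the data were seen. The medians ran from 0.12 to 0.15 for cholesterol synthesis, from 0.07 to 0.12 for fatty acid synthesis and from 0.05 to 0.11 for SREBP regulation, and the number of genes with an interval above equality from 8 to 10. The count of genes past the fold threshold depended on that threshold: 1 higher and 0 lower at 1.5-fold as well as at 2-fold. With a minimum mean of 100 counts, which leaves out 3 of the 31 genes, 0 were at least 1.2-fold lower. Of the 31 genes 4 (Acly, Ebp, Elovl6 and Mvd) changed sign under some alternative, each lying within 0.01 of 0 and within counting error of equality. After the GC and length correction, the log2 ratios of Scap (-0.03), Srebf2 (0.16), Acly (0.04) and Fasn (0.23) lay above their counting intervals under the main scaling. The cause was not tested.

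No paired analysis was possible because 1 library per group was analysed and they carry different replicate numbers. For the same reason leaving out a replicate could not be run. Depth limits the values of Scd1, Mvd, Tm7sf2 and Hsd17b7 most, each with fewer than 150 counts in either library.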
